A study of Mus musculus with 24 samples.

Results

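DNA methylation was described here along Tshz1, Tshz2 and Tshz3, the mouse teashirt zinc finger genes, in the dentate gyrus of young and aged mice. A cytosine belonged to a locus when it lay inside the gene as annotated in GENCODE M21 or within 5 kb of it, on either strand. By this rule 473 of the 762182 cytosines of the methylation table were taken, with 107 at Tshz1, 259 at Tshz2 and 107 at Tshz3, and all 473 lay in a CpG. The loci were chosen by measured values, since the study singled out a cytosine of Tshz2 by its methylation in these same mice, and the values of that cytosine are given as a description with no test.

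Reduced representation bisulfite sequencing (RRBS) reads the methylation of cytosines in fragments cut at CCGG sites, and was performed on micro-dissected dentate gyrus of individual female C57BL/6JRj mice. Young_STD were 5 mice aged 1.5 months in standard cages. Aged_STD were 7 mice aged 14 months in standard cages, and Aged_ENR were 7 mice aged 14 months in environmental enrichment, a large enclosure with tunnels and toys. The labels name no transgene and no treatment beyond housing. According to the study's methods, young mice spent days and aged mice about a year in their housing, and enriched mice lived together in a shared enclosure, so an effect of the enclosure and of enrichment cannot be told apart. Young_ENR mice were not analysed here. The tissue held all cell types of the dissected region, so a change in the share of a cell type and a change within cells cannot be told apart.

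Teashirt proteins are transcription factors with widely spaced zinc fingers and a homeodomain, first known as patterning genes of the fly, and they mostly repress their target genes together with co-repressors. In the mouse, Tshz1 is known for the development of olfactory bulb interneurons, and Tshz3 for smooth muscle of the ureter and for cortical projection neurons. CpG-rich promoters are usually free of methylation whatever the activity of the gene, whereas the CpGs inside long genes are usually methylated in most cells.

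Tshz2 lies on the plus strand of chromosome 2 at chr2:169633013-170071816 (GRCm38, the build of mm10). The position singled out is the plus-strand base of a CpG whose minus-strand cytosine, at chr2:169826489, has values in the table. This minus-strand cytosine is called the named cytosine here. It was taken as the one meant, although the strand was not stated in the sources used here. The plus-strand cytosine of this CpG was not analysed here. It lies in intron 1 of the long Tshz2 transcripts, 192710 bases after the first exon and 57037 bases before the next, and also within the non-coding gene Gm26883. Its surroundings are shown 5′ to 3′ as the minus strand of chr2:169826440-169826539, with every CpG that has a measured cytosine in capitals, and the named cytosine is base 51.
Named cytosine: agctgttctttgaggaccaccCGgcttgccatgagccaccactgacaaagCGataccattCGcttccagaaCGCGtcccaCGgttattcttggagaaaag
The run holds 1 CCGG site, around the first capital pair, and the 6 measured minus-strand cytosines from that pair onwards span 60 bases. The authors' reads were 75 bases long, so a single read that starts at this site can cover all 6.

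In a later intron, before the last annotated exon of Tshz2, 2 clusters of CpGs carried the largest mean falls from Young_STD to Aged_STD in Tshz2, and their sequences are shown for that reason. They lie on the plus strand at chr2:170003271-170003345 and chr2:170059402-170059551, with measured CpGs in capitals.
First bases of the 370.5 kb cluster: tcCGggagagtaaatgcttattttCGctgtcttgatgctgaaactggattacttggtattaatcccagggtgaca
Last bases of the 426.3 kb cluster: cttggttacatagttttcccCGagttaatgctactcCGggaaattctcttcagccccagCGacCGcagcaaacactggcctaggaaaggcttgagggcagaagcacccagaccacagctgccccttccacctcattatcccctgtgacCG
Clusters are named by their distance from the first annotated start of Tshz2. All 259 measured Tshz2 cytosines were within 75 bases of a CCGG site, and 115 were inside one.

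The number of reads behind a value is unknown, and only the authors' minimum of 10 reads applies. Between 124 and 252 of the Tshz2 cytosines were measured in a mouse. Values were present for 83.9% of Tshz2 cytosines and mice in Young_STD, 67.2% in Aged_STD and 71.8% in Aged_ENR. At the 100 Tshz2 cytosines with a mean of 20% to 80%, 25.4% of values were exactly 0% or 100% in Young_STD, against 42.8% in Aged_STD and 36.2% in Aged_ENR. Over the whole table, these shares were 22.9%, 40.02% and 35.5%. In 3 Aged_STD mice and 1 Aged_ENR mouse, the cytosines with values were on average less methylated in young mice (an index of 19.5% to 23.4%, against 28.1% to 37.98% in the other mice). Missing values, extreme values and this index therefore differed between the groups, and their part in the differences below was not tested beyond the values given.

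At the named cytosine, methylation was 57.9%, 71.2%, 65.9%, 85.7% and 100% in the 5 Young_STD mice. In the 6 Aged_STD mice with a value, the lowest was 0%, the median 14.4% and the highest 100%. In the 4 Aged_ENR mice with a value, it was 15%, 0%, 23.1% and 40%. All 4 Aged_ENR mice were below every Young_STD mouse, while the Aged_STD mice spread over the whole scale and overlapped both groups. The means were 76.1% ± 16.8 (SD, n = 5), 38.1% ± 48.6 (SD, n = 6) and 19.5% ± 16.7 (SD, n = 4).

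Aged_STD minus Young_STD was -37.99 ± 22.6 (SE) points, Aged_ENR minus Aged_STD was -18.6 ± 25.9 (SE) and Aged_ENR minus Young_STD was -56.6 ± 16.5 (SE). The direction of the second rests on the 2 Aged_STD mice at 100%, since the other 4 had 0% to 21.7% and the Aged_ENR mice 0% to 40%. It was -6.26 with 1 of these 2 left out, -54.0 within series 27 and -45.6 with the replicate number as a block. Libraries fell into series 27 and 37 by the numbers in their labels. Within series 27, Aged_STD was 1.67 points above Young_STD, and within series 37 the difference was -83.2 points. The first value rests on 2 Aged_STD mice at 100% and 1 at 0%. Among the 259 Tshz2 cytosines, 15 had a larger fall from Young_STD to Aged_STD, and 2 had a larger fall from Young_STD to Aged_ENR.

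The 5 minus-strand neighbours that the same read can cover lie 30, 23, 21 and 10 bases before it and 29 bases after it in plus-strand coordinates. All 5 had a lower mean in Aged_STD than in Young_STD, with differences of -45.6 to -2.57 points and a median of -24.7. From Aged_STD to Aged_ENR, 4 of the 5 were higher and 1 was lower, with a median rise of 9.61 points. At the named cytosine the mean was lower in Aged_ENR than in Aged_STD, below the differences of all 5, but the medians had the other order, with 14.4% in Aged_STD and 19.04% in Aged_ENR.

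The neighbour 10 bases away had 100%, 59.0%, 67.4%, 85.7% and 89.7% in Young_STD. It ranged from 0% through a median of 16.2% to 100% in Aged_STD, and was 100%, 59.3% and 56.6% in the 3 Aged_ENR mice with a value. Of these Aged_ENR values, 2 lay inside the Young_STD range and 1 just below it, whereas at the named cytosine all Aged_ENR values lay below.

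Values along this read were often shared within a mouse. Aged_STD 3 had 0% at all 6 cytosines, and Aged_ENR 7 had 40% at all 5 that were measured. Aged_STD 4 had 100% at the named cytosine and 0% at the 5 others, and Aged_STD 2 had 0% or 100% at each. In Young_STD, a mouse took 3 to 6 distinct values over the 6 cytosines. The mean over the read was 48.9% ± 19.5 (SD, n = 5) in Young_STD, 23.9% ± 23.2 (SD, n = 6) in Aged_STD and 29.3% ± 9.70 (SD, n = 4) in Aged_ENR. Neither aged group was separated from Young_STD on this measure, since Young_STD 2 had 35.8% and the highest aged values were 66.7% and 40%.

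Within 500 bases on either strand, the table held 19 neighbours of the named cytosine. Of these, 17 had a lower mean in Aged_STD than in Young_STD and 2 a higher one, with a median difference of -15.7 points. All 11 minus-strand neighbours were lower, with a median of -30.4 points, against 6 of 8 plus-strand neighbours with a median of -4.62. These neighbours are linked and not separate observations, since 5 of the 11 can share the read of the named cytosine. Those at offsets of -304 to -243 bases on the minus strand had values only in Aged_STD 1, 2 and 4. There, Aged_STD 4, with a low index, had 0% at each except 100% at -259. Plus-strand values came partly from other Aged_STD mice, so the strands were not compared in the same mice. Between Aged_ENR and Aged_STD, 13 neighbours were higher, 5 lower and 1 equal, with a median of 11.8 points. The largest of these rises was at chr2:169826185, at an offset of -304 bases, where values were 56.7%, 43.5%, 100% and 0% in Young_STD and 68.6%, 34.4% and 0% in Aged_STD. The 5 Aged_ENR mice with a value there had 71.4% to 100%, above all 3 Aged_STD mice, but inside the Young_STD range.

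**Figure D1:**
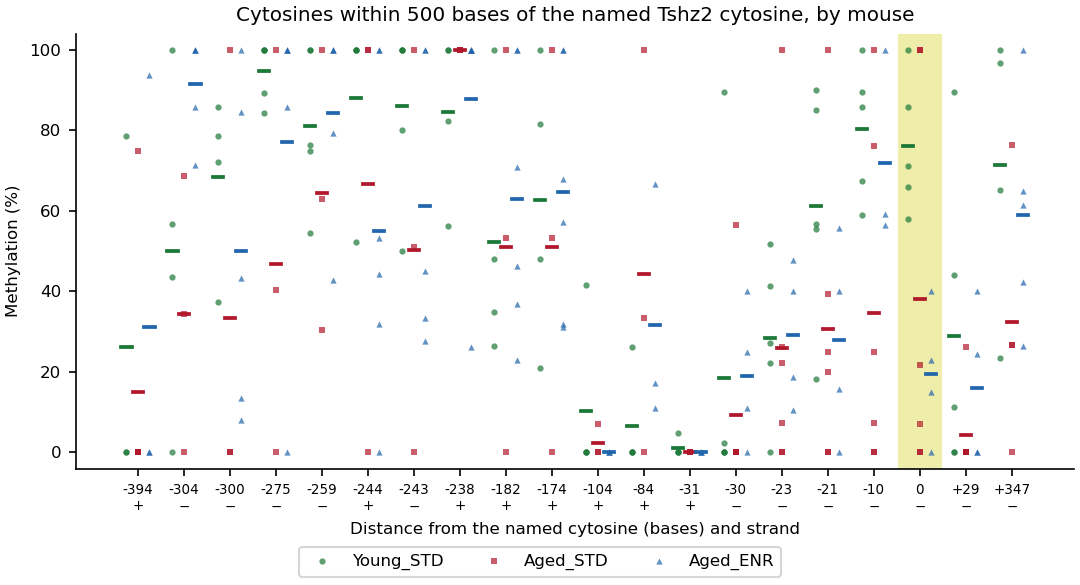
Methylation in percent at the named Tshz2 cytosine (shaded, distance 0) and the 19 neighbours within 500 bases, by distance in bases and strand. Points are mice, horizontal bars are group means, and colours and symbols give Young_STD, Aged_STD and Aged_ENR. At distance 0 the means fall from 76.1% to 38.1% and 19.5%, whereas at -10 the Aged_ENR mean of 71.95% lies near the Young_STD mean of 80.4%.

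Averaged over the 20 cytosines of this cluster with a value in the mouse, methylation was 42.1% to 63.6% in Young_STD. It was 10% to 51.6% in Aged_STD with a median of 33.3%, and 32.7% to 72.8% in Aged_ENR with a median of 54.6%. The Aged_ENR mice covered the Young_STD range. The 3 Aged_STD mice with a low index had 10%, 33.3% and 10.99%. Without the 4 mice with an index under 25%, an exclusion chosen after the data had been seen, the group means were 55.3% in Young_STD, 40.02% in Aged_STD and 53.3% in Aged_ENR. Between 6 and 20 of the 20 cytosines were measured in a mouse, so these means rest on differing cytosines.

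Along the whole gene, Tshz2 was unmethylated at its first promoter and variable in its introns. The 12 promoter cytosines at the first annotated starts had group means of 0% to 10.5% in all 3 groups. The 11 cytosines within 1 kb of the internal starts at chr2:169884893 and chr2:169885835 had medians of 95.8% in Young_STD and 100% in both aged groups, although the annotation makes them promoter too. The 224 intron cytosines had medians of 72.6%, 60.7% and 67.4% in Young_STD, Aged_STD and Aged_ENR. Of these, 34 were under 20% and 67 over 80% in every group.

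The difference between ages was larger at CpGs of intermediate level. The 83 Tshz2 cytosines with a Young_STD mean of 20% to 80% had medians of 55.3% in Young_STD, 39.6% in Aged_STD and 47.5% in Aged_ENR. The 120 cytosines over 80% in Young_STD had medians of 94.9%, 93.6% and 93.0%. The classes were set by the Young_STD values themselves, so these medians are a description with no test.

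**Figure D2:**
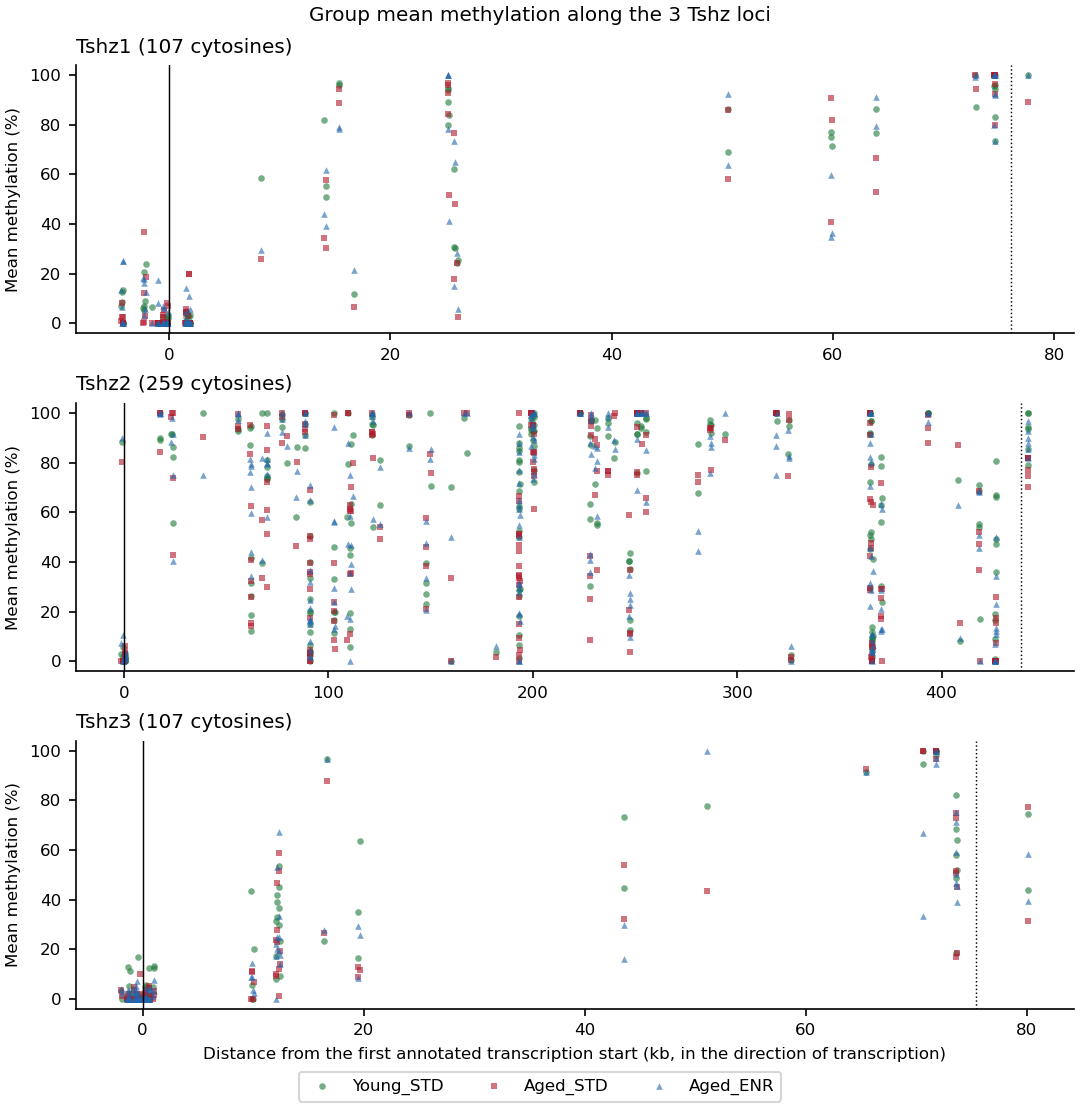
Group mean methylation in percent of every cytosine in Tshz1, Tshz2 and Tshz3 by distance in kb from the first annotated start, with symbols for Young_STD, Aged_STD and Aged_ENR, a solid line at the start and a dotted line at the end of the gene. Cytosines around the starts lie near 0% in all groups, and those within the genes spread over the whole scale.

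In the 18 of 57 clusters with at least 5 cytosines, separated by more than 500 bases, the Tshz2 mean was lower in Aged_STD than in Young_STD in 12 and higher in 6. The differences ran from -29.9 to 8.01 points with a median of -6.41. Between Aged_ENR and Aged_STD, 13 clusters were higher and 5 lower, from -12.0 to 19.2 points with a median of 3.49. These comparisons share the Aged_STD mice. Clusters with 1 to 4 cytosines ranged from -24.8 to 16.05 points between Aged_STD and Young_STD. Averaged by mouse, 12 of the 18 were lower and 6 higher in Aged_STD than in Young_STD, and 11 higher and 7 lower in Aged_ENR than in Aged_STD. Without the 4 mice with a low index, the first split was 9 lower and 9 higher, and the second 10 higher and 8 lower.

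**Figure D3:**
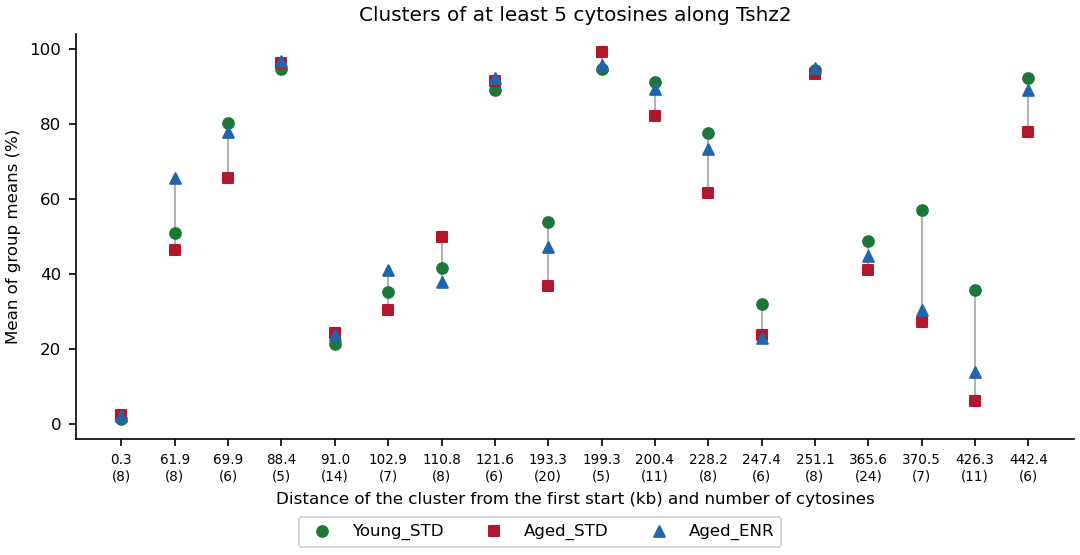
Mean methylation in percent of the 18 Tshz2 clusters with at least 5 cytosines, placed by distance in kb from the first start with the number of cytosines in parentheses. Symbols are the means of Young_STD, Aged_STD and Aged_ENR over the cytosines of a cluster. Over cytosines, Young_STD stands above both aged groups at 370.5 kb (57.1% against 27.1% and 30.3%) and 426.3 kb (35.6% against 5.97% and 13.7%).

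The 426.3 kb cluster, in the last part of the gene and outside Gm26883, stood out by mouse. Its mean over measured cytosines was 41.0%, 40.9%, 27.4%, 50.2% and 37.05% in the Young_STD mice. It ranged from 3.86% through a median of 5.62% to 19.5% in Aged_STD, and from 2.44% through 12.8% to 24.1% in Aged_ENR. No aged mouse reached the lowest Young_STD mouse, in either housing. The cluster was picked for its fall, so no test is given, and the aged mice had values at 3 to 11 of its 11 cytosines.

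Inside it, the plus-strand cytosine at chr2:170059461, base 60 of the run shown, had 53.8%, 100%, 50%, 100% and 100% in Young_STD. All 5 Aged_STD mice with a value had 0%, and the 4 Aged_ENR mice had 32.1%, 67.6%, 0% and 100%. The difference of -80.8 ± 16.7 (SE) points between Aged_STD and Young_STD had the smallest p of all Tshz cytosines in limma's moderated test, with an unadjusted p of 0.000593 and an adjusted p of 0.760. Aged_ENR was 49.9 ± 19.2 (SE) points above Aged_STD (adjusted p = 0.769, limma).

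The CpG at bases 37 and 38 of the same run was read on both strands. Whether the reads of both strands came from the same DNA fragments is unknown. On the plus strand, Young_STD mice had 30.8%, 100%, 0%, 100% and 100%, and all 6 Aged_STD mice had 0%. On the minus strand, Young_STD mice had 16%, 38.5%, 27.7%, 69.2% and 95%, and Aged_STD ran from 0% through a median of 18.1% to 37.2%. The differences were -66.2 points on the plus strand and -31.7 points on the minus strand. At the last base of the run, chr2:170059551 on the minus strand, the means were 47.3% ± 16.2 (SD, n = 5) in Young_STD, 7.14% ± 11.1 (SD, n = 6) in Aged_STD and 11.1% ± 13.2 (SD, n = 6) in Aged_ENR. Of 12 Tshz2 CpGs measured on both strands, 4 fell by more than 25 points in Aged_STD on at least 1 strand, and this was the only CpG of them that did so on both.

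At the 370.5 kb cluster, the first pair of CpGs in the run shown had few mice. At chr2:170003273, the values were 100%, 35.7% and 100% in Young_STD, 47.5%, 0%, 20% and 0% in Aged_STD, and 27.8%, 0% and 35% in Aged_ENR. At chr2:170003295, they were 62.7%, 84.0% and 100% in Young_STD, 13.2%, 53.2%, 20% and 29.6% in Aged_STD, and 38.9%, 0% and 0% in Aged_ENR. At the second of these, no aged mouse reached the lowest Young_STD value. Over all 7 cytosines of the cluster, the mice overlapped, with 32.1% to 66.6% in Young_STD, 10.6% to 51.5% in Aged_STD and 14.2% to 75% in Aged_ENR. The means by mouse were 50.9% ± 13.3 (SD, n = 5), 30.1% ± 13.1 (SD, n = 6) and 37.4% ± 21.02 (SD, n = 7). Compared with the means over cytosines (57.1%, 27.1% and 30.3%), Young_STD was closer to both aged groups, and the aged groups were further apart.

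The 228.2 kb cluster differed between strands and mice. At chr2:169860997 on the plus strand, Young_STD mice had 87.1%, 84.6% and 100%, Aged_STD mice 100%, 0%, 0% and 0%, and Aged_ENR mice 71.4%, 100%, 96.2% and 84.6%. The 3 Aged_STD mice at 0% also had 0% at chr2:169861072, where the group means were 57.4%, 8.33% and 36.1%. On the opposite strand of that CpG, the means were 30.4%, 42.5% and 43.0%, so the order of the groups turned with the strand.

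**Figure D4:**
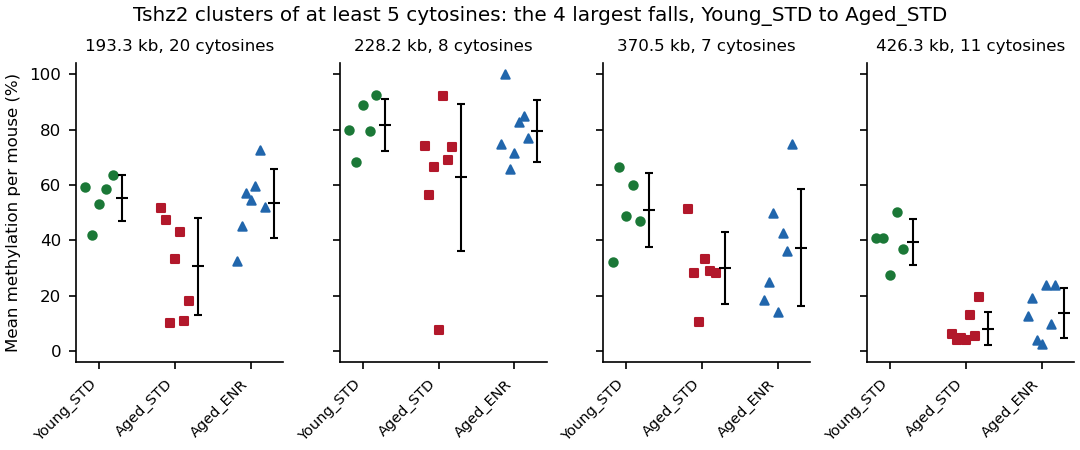
Mean methylation in percent of each mouse over its measured cytosines in the 4 Tshz2 clusters that had the largest falls, among those with at least 5 cytosines, from Young_STD to Aged_STD. Points are mice, bars at the side are the mean and SD, and titles give the distance from the first start. At 426.3 kb, all Young_STD mice (27.4% or more) lie above all aged mice (24.1% or less), while the groups overlap in the other 3 clusters.

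In the untranslated part of an exon, the cytosine at chr2:169888439 had 90.9% to 100% in 4 Young_STD mice and 100% in all 6 Aged_ENR mice with a value. The 5 Aged_STD mice had 55.2%, 100%, 0%, 89.6% and 55.6%. Aged_ENR was 39.9 ± 14.6 (SE) points above Aged_STD (adjusted p = 0.769, limma). On the opposite strand of this CpG, Aged_STD differed from Young_STD by -6.76 points, against -37.7 on this strand, and Aged_ENR differed from Aged_STD by -6.24 points, in the other direction than on this strand.

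Among Tshz2 cytosines measured in every mouse compared, differences were smaller. The largest fall from Young_STD to Aged_STD was -13.6 ± 23.3 (SE) points at chr2:169723787, and the largest rise was 14.3 ± 21.8 (SE) at chr2:169724150. From Aged_STD to Aged_ENR, they were -24.5 ± 19.5 (SE) at chr2:169880323 and 14.5 ± 18.7 (SE) at chr2:169723787. From Young_STD to Aged_ENR, they were -26.4 ± 16.4 (SE) at chr2:170059439 and 20.8 ± 14.6 (SE) at chr2:169723927. None of these had an unadjusted p under 0.05 (0.133 or more in each, with an adjusted p of 0.769 or more, limma).

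Tshz3 spans chr7:36698118-36773553 on the plus strand and was mostly unmethylated. Its 48 promoter cytosines had group means of 0% to 16.7%, with medians of 0% in every group. In the RefSeq promoter table of this build, the 250 bases before the Tshz3 start hold 27 CG dinucleotides and 2 CCGG sites, and 8.56% of 32851 promoters hold at least as many CG. The 250 bases before the RefSeq start of Tshz2 hold 2 CG and no CCGG, and 47.1% of promoters hold a CCGG. Both motifs read the same on either strand, and each CCGG contains a CG.

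Inside Tshz3, methylation was higher than at the promoter. The 26 intron cytosines had medians of 34.0% in Young_STD, 16.5% in Aged_STD and 21.1% in Aged_ENR, and the 13 exon cytosines, all outside untranslated sequence, had medians of 82.2%, 74.9% and 66.7%. In all 4 of the 12 Tshz3 clusters with at least 5 cytosines, the mean was lower in Aged_STD than in Young_STD, with differences of -8.76 to -0.974 points. In all 4 it was higher in Aged_ENR than in Aged_STD, by 0.270 to 8.06 points. Averaged by mouse and without the 4 mice with a low index, 3 of the 4 were lower and 1 higher in Aged_STD than in Young_STD, and 2 higher and 2 lower in Aged_ENR than in Aged_STD. Clusters with fewer cytosines went both ways, from -33.9 to 2.66 points between Aged_STD and Young_STD and from -50 to 56.4 points between Aged_ENR and Aged_STD.

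The intron cytosine of Tshz3 at chr7:36717638 had 22.2%, 35.3%, 40.4%, 45.3% and 31.9% in Young_STD. It ran from 0% through a median of 8.93% to 28% in all 7 Aged_STD mice, and was 57.4%, 11.3%, 19.9%, 47.7% and 10.7% in Aged_ENR. Only Young_STD 1, at 22.2%, lay within the Aged_STD range, and the difference was -22.1 ± 8.83 (SE) points (unadjusted p = 0.0270, adjusted p = 0.760, limma). Aged_ENR overlapped both groups.

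At chr7:36749144, also in an intron, Young_STD mice had 66.2%, 100%, 100%, 56.8% and 64.7%, Aged_STD mice 0%, 100% and 30.8%, and all 4 Aged_ENR mice 100%. The rise of 56.4 ± 21.8 (SE) points from Aged_STD to Aged_ENR was the Tshz3 difference with the smallest p in that comparison (adjusted p = 0.769, limma). In coding sequence at chr7:36768694, all 3 Young_STD and all 3 Aged_STD mice had 100%, and the 3 Aged_ENR mice had 100%, 0% and 0%. In the promoter, chr7:36698362 had 0% to 9.68% in Young_STD and 0% to 1.54% in Aged_ENR, a difference of -4.37 ± 1.799 (SE) points (unadjusted p = 0.0309, adjusted p = 0.776, limma).

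Tshz1 lies on the minus strand of chromosome 18, from 84011627 to 84087706. Its 54 promoter cytosines had group means of 0% to 20%, and the median was 0% in each group. The 24 intron cytosines had medians of 75.9% in Young_STD, 58.0% in Aged_STD and 62.8% in Aged_ENR, and the 10 exon cytosines had 95.8%, 100% and 99.7%. Of the 107 cytosines, 35 also lay in Zadh2, the neighbouring gene. Of 16 clusters, the 6 with at least 5 cytosines differed by -3.44 to 3.25 points between Aged_STD and Young_STD, 3 of them lower and 3 higher. Between Aged_ENR and Aged_STD, 4 of the 6 were higher and 2 lower. Averaged by mouse, the splits were 2 lower and 4 higher in Aged_STD than in Young_STD, and 3 lower and 3 higher in Aged_ENR than in Aged_STD. Clusters with 1 to 3 cytosines ranged wider, from -32.4 to 3.50 points between Aged_STD and Young_STD.

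In the coding exon of Tshz1, the cytosine at 84013050 had 70%, 86.4% and 64.7% in the 3 Young_STD mice with a value. All 4 Aged_STD and all 3 Aged_ENR mice with a value had 100%. The rises were 26.3 ± 6.33 (SE) points in Aged_STD (adjusted p = 0.760, limma) and 26.3 ± 7.58 (SE) in Aged_ENR (adjusted p = 0.776, limma). The aged groups did not overlap with Young_STD, in the opposite direction to most Tshz2 differences.

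The intron cytosine of Tshz1 at 84073700 had 51.7%, 58.3%, 100%, 100% and 100% in Young_STD. It had 10.5%, 40.8%, 100%, 0% and 21.4% in Aged_STD, and ran from 9.76% through 50% to 57.1% in all 7 Aged_ENR mice. Aged_ENR minus Young_STD was -37.98 ± 13.3 (SE) points (adjusted p = 0.776, limma), and 6 of the 7 lay above the Aged_STD median of 21.4%. At 84062388, the 5 Young_STD mice had 73.3% to 92.9% and the 5 Aged_ENR mice 0% to 69.1%, with no overlap, and Aged_STD covered 0% to 100%.

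No Tshz cytosine had an adjusted p under 0.05 with a difference over 25 points in any of the 3 comparisons (limma, with Benjamini-Hochberg adjustment over all cytosines tested), and the share of the whole table that did was 0% in each. Between Aged_STD and Young_STD, 373 Tshz cytosines were tested, and 13 were lower and 4 higher at an unadjusted p under 0.05, beside 3.33% lower and 1.09% higher over the table. For Aged_ENR against Aged_STD, 0 were lower and 9 higher among 369 tested, beside 0.798% and 1.45%. For Aged_ENR against Young_STD, 8 were lower and 4 higher among 379, beside 2.56% and 1.40%. As the members were picked with a Tshz2 result known, nothing is read from these counts.

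Differences of group means over 25 points between Aged_STD and Young_STD were found at 31 lower and 5 higher of 241 Tshz2 cytosines, or 12.9% and 2.07%, beside 7.19% and 2.17% over the table. Without the named cytosine and its neighbours within 500 bases, they were 24 and 4 of 221, or 10.9% and 1.81%. Tshz1 had 4 lower and 1 higher of 63, and Tshz3 had 6 lower and 0 higher of 69. The median difference was -4.40 points in Tshz2, -0.623 in Tshz1 and -1.86 in Tshz3, beside -0.563 over the table. The table is not a matched background here or below. Of the 259 Tshz2 cytosines, 100 had a mean of 20% to 80%, against 120961 of 762182 in the table. In Aged_STD, values were present for 67.2% of Tshz2 cytosines and mice, against 75.3% over the table. The part of this in the higher Tshz2 shares was not tested.

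For Aged_ENR against Aged_STD, 22 of 230 Tshz2 cytosines were higher and 7 lower by more than 25 points, or 9.57% and 3.04%, beside 4.53% and 2.62% over the table. Tshz1 had 1 higher and 2 lower of 65, and Tshz3 had 3 higher and 5 lower of 74. For Aged_ENR against Young_STD, Tshz2 had 18 lower and 11 higher of 240, Tshz1 5 and 2 of 65, and Tshz3 7 and 1 of 74, beside 5.21% lower and 2.39% higher over the table. Comparisons with a common group share its mice.

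**Figure D5:**
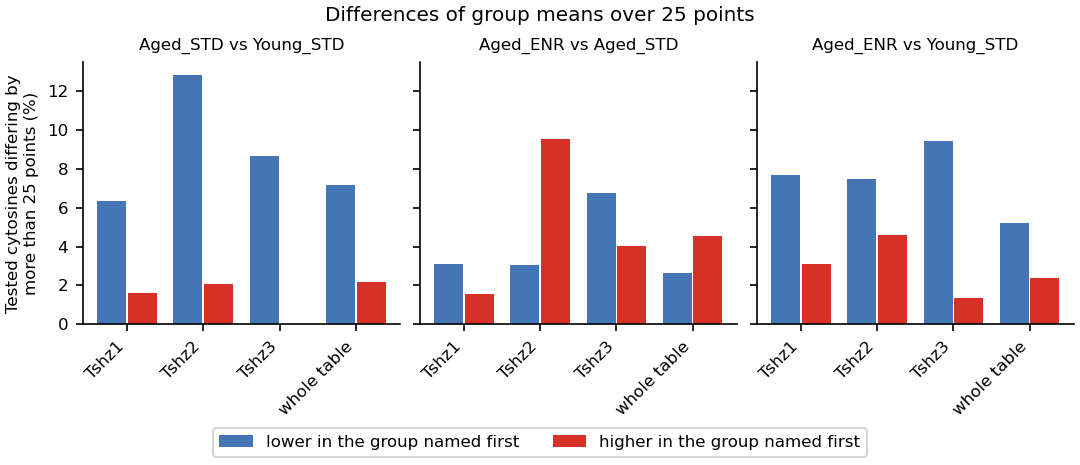
Share of tested cytosines, in percent, whose group means differed by more than 25 points in each comparison, for Tshz1, Tshz2, Tshz3 and the whole table. Blue bars are cytosines lower, and red bars higher, in the group named first. Tshz2 has 12.9% lower in Aged_STD than in Young_STD and 9.57% higher in Aged_ENR than in Aged_STD, against 7.19% and 4.53% over the table. The table is not a matched background, since a smaller share of its cytosines has an intermediate level.

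Ranges of the groups could be compared at the cytosines with a value in every mouse of both groups. For Aged_STD against Young_STD, 0 of 49 Tshz cytosines had ranges that did not overlap, beside 0.432% of such cytosines in the table. For Aged_ENR against Aged_STD it was 0 of 38, beside 0.0162%, and for Aged_ENR against Young_STD 0 of 70, beside 0.323%. The cytosines without overlap named above all lacked values in some mice, so these shares do not apply to them. Ranges separate more easily with fewer mice, and the share among such cytosines was not counted. They were also picked by their values, so nothing is read from their lack of overlap.

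Means over the cytosines with a value in all 19 mice used few cytosines of each locus. Over 17 of 259 Tshz2 cytosines, of which 9 were in promoters, the mean was 34.0% ± 2.07 (SD, n = 5) in Young_STD, 30.7% ± 4.42 (SD, n = 7) in Aged_STD and 31.5% ± 1.05 (SD, n = 7) in Aged_ENR. Over 8 Tshz1 cytosines, it was 10.6% ± 2.66, 9.13% ± 4.77 and 8.95% ± 2.75 (SD) in the same order. Over 15 Tshz3 cytosines, it was 9.54% ± 3.83, 7.47% ± 2.53 and 8.47% ± 2.92 (SD). The groups overlapped at each gene. At Tshz2, 6 of 7 Aged_ENR mice lay below the lowest Young_STD mouse, at 32.5%, and Aged_STD, with 26.4% to 38.6%, covered the whole Young_STD range.

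With all measured cytosines of Tshz2, the difference between Aged_STD and Young_STD was larger than the -3.33 points over these 17, at -6.74 as the mean over cytosines of the difference of group means and -11.6 from each mouse's mean over the cytosines it had. Over the 17 cytosines with the index of the mice as a term, it was smaller, at -1.67.

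The genes whose mean over such cytosines followed each Tshz gene most closely across the 19 mice were Dpf3, Lrmda and Taf15 for Tshz1 (Pearson r = 0.702, 0.689 and 0.674). For Tshz2 they were Gcnt2, Prune1 and Gm28048 (r = 0.787, 0.777 and 0.756), and for Tshz3 Elmod1, Prox1 and Cep164 (r = 0.734, 0.728 and 0.721). The medians over all 2259, 2258 and 2258 genes compared were 0.0610, 0.111 and 0.113. The named genes have the largest r of that many over 19 mice, and how large these would be by chance was not tested. The Tshz1 mean rests on 8 cytosines, 7 of them in promoters, whereas the genes compared had at least 10. Points share library and depth, and the r of Tshz2 with the index described above was 0.501.

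The 11 other genes of the zinc finger class of homeobox genes (Zeb1, Zeb2, Zfhx2, Zfhx3, Zfhx4, Adnp, Adnp2, Homez, Zhx1, Zhx2 and Zhx3) held 1050 cytosines by the same window. Of 779 tested between Aged_STD and Young_STD, 65 were lower and 15 higher by more than 25 points, with a median of -0.541 points. By gene, the share lower ran from 0% in Zfhx4, Adnp and Homez to 16.7% in Zeb1 (4 of 24). It was 10.3% in Zfhx3 (47 of 458). Between Aged_ENR and Aged_STD, 17 were lower and 37 higher of 770, with a median of 0.732, and between Aged_ENR and Young_STD 41 and 22 of 791, with a median of -0.142. Of these genes, Zfhx3 held 512 of the cytosines, and none of those tested passed an adjusted p under 0.05 with a difference over 25 points (limma).

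Values on either side of the 5 kb limit are given in the order Young_STD, Aged_STD and Aged_ENR. At Tshz2, the last cytosine inside before the gene, 1307 bases away, had group means of 2.81%, 0% and 7.35%, and the first outside, 22536 bases away, had 46.0%, 9.52% and 26.7%. After the gene, the last inside (3696 bases) had 93.4%, 82.0% and 82.0%, and the first outside (16038 bases) had 62.5%, 81.5% and 65.3%. After Tshz3, the last cytosine inside (4709 bases) had 74.4%, 77.1% and 39.6%, and the first outside (5056 bases) had 21.3%, 32.4% and 26.7%, so the limit there separated neighbouring cytosines. On the upstream side of Tshz1, the last inside (4307 bases) had 7.19%, 0.833% and 13.4%, and the first outside (5870 bases) had 22.1%, 24% and 20%.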

How the data were processed

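RRBS libraries of single mice were sequenced by the authors as 75-base single-end reads, and reads were trimmed and mapped to mm10. The submitters' processing notes name Trim Galore 0.4.0, cutadapt 1.8.1, Bismark 0.16.1 and methylKit 1.5.2. The authors required 10 or more reads for a value and values from 3 or more mice per group. The deposited file holds the percent of methylated reads per cytosine and mouse, with no read numbers, so depth is unknown and no test on reads or interval was possible. Mice differed in how many of the 762182 cytosines were measured, from 489813 to 725467.

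From these, members, features (promoter within 1 kb of a start, then exon, intron, flank) and sequences were taken with GENCODE M21, RefSeq and GRCm38. RefSeq promoters matched 2 of the 3 genes. Groups came from the labels. Percents were compared between mice with limma 3.58.1 (R 4.3.3, data.table, version 1.17.8), two-sided, with a variance trended on mean methylation, over all cytosines with at least 3 mice in both groups and values that were not all equal. The study used a chi-squared test on reads. Enriched mice shared an enclosure, so p-values measure the spread between mice and not between enclosures. Named cytosines were the study's, those within 500 bases of it, the 2 with the smallest p per gene and comparison and the largest fall and rise measured in every mouse, and others were picked after their values were seen. The composition index of a mouse is the mean Young_STD methylation of the cytosines it has values for. Members and lists were chosen with earlier results of these data known.

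Alternatives covered terms for library series, index and replicate number, other scales, windows, thresholds and choices of mice. Python 3.11.15 with numpy 2.4.6, pandas 2.3.3 and matplotlib 3.10.9 was used. Amplified windows of the study at Tshz2 are not reported here.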

Additional observations from a re-analysis of the deposited data

Results flagged for a closer look

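In 21 of 150 groups of values examined (14.0%), the highest or lowest mouse stood apart from the others of its group by Dixon's criterion for 4 to 10 values, where chance flags about 1 in 20 of groups with values spread around a mean. In 17 of the 21, all other mice were tied at 0% or 100%, so that any other value is flagged, and the share cannot be compared with that rate.

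Around the named Tshz2 cytosine, there were 11. On the plus strand, Aged_STD 5 had 75% at chr2:169826095, Young_STD 2 had 52.3% at chr2:169826245 and Aged_ENR 1 had 26.1% at chr2:169826251. On the same strand, Young_STD 3 had 41.7% at chr2:169826385, 26.3% at chr2:169826405 and 4.76% at chr2:169826458, where the other young mice were at 0%. On the minus strand, Aged_ENR 6 had 0% at chr2:169826214, and Young_STD 5 and Aged_STD 5 had 89.7% and 56.5% at chr2:169826459. There, Aged_STD 2 had 100% at chr2:169826466 and Aged_STD 5 had 26.1% at chr2:169826518. Elsewhere in Tshz2, Young_STD 3 had 90.9% at chr2:169888439, where the other young mice had 100%.

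In Tshz1, the intron cytosine at 84073700 had 9.76% in Aged_ENR 4. In the promoter, Young_STD 4 had 16.7% at 84087826, and Young_STD 1 and Aged_ENR 2 had 17.4% and 4.55% at 84086022. In the flank, Aged_STD 1 had 5% at 84092013. In the Tshz3 promoter, Aged_STD 5 and Aged_ENR 4 had 9.52% and 37.5% at chr7:36699134, and Aged_STD 7 and Aged_ENR 4 had 4% and 1.54% at chr7:36698362. At each of these promoter and flank cytosines, the nearest other mouse of the group was at 0%.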

How the results depend on the processing

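Of 489 recomputed values for 21 results, 457 stayed within the set limits (1.5 times for a count, 1 SD between mice for a difference). This number does not measure stability. Counts at the adjusted threshold could hardly move, since the smallest adjusted p of the whole table was 0.375 in the main fits (limma). At the named cytosine, the limit was 37.9 points for Aged_STD vs Young_STD, so a shift from -38.0 to -25.3 counted as within it. Under no alternative did a Tshz cytosine pass the adjusted threshold of 0.05 together with the limit of 25 points. Read depth is unknown and limits every value.

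Cytosines at an unadjusted p under 0.05 numbered 17 for Aged_STD vs Young_STD. They numbered 2 with a value in every mouse, 11 in library series 27, 8 in series 37 and 11 without the 4 mice with an index under 25%, an alternative added after seeing the data. They numbered 9 without Young_STD 4 and 10 without Aged_STD 6, in a range of 9 to 20 over mice left out. For Aged_ENR vs Aged_STD, the 9 became 3 with the replicate block, 5 with the index as a term, 0 with a value in every mouse, 5 in series 27, 4 in series 37, 5 without low-index mice, 5 without Aged_STD 2 and 4 without Aged_STD 4 (range 4 to 11). For Aged_ENR vs Young_STD, the 12 became 19 with all groups in the fit, 20 with the index as a term, 2 with a value in every mouse and 3 in series 37 (range 10 to 17).

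Differences over 25 points numbered 47, 40 and 44 in the same order. With a value in every mouse they numbered 0, 0 and 4, and over 10 points 152, 139 and 155. For Aged_ENR vs Aged_STD they numbered 17 in series 37. Leaving out each mouse gave 41 to 62, 36 to 57 and 40 to 54.

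At the named cytosine, Aged_STD vs Young_STD was 1.67 points in series 27 and -83.2 in series 37, and leaving out each mouse gave -50.4 to -30.4. Leaving out each mouse gave -26.3 to -6.26 for Aged_ENR vs Aged_STD and -63.4 to -50.1 for Aged_ENR vs Young_STD. With every cytosine a mouse had a value for, the locus difference was -6.36 for Tshz1 and -11.6 for Tshz2 (Aged_STD vs Young_STD), 6.93 for Tshz2 (Aged_ENR vs Aged_STD) and -4.70 for Tshz2 (Aged_ENR vs Young_STD). For Tshz3 it was -6.16 in series 37 (Aged_STD vs Young_STD). Fewer cytosines or mice enter the fits by series and with a value in every mouse. For the others, the cause was not tested. Aged_ENR could not be compared at this cytosine in series 37, where 1 Aged_ENR mouse had a value.

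Same-numbered mice had correlations of their deviations between -0.0965 and 0.0778, over 69034 cytosines. Differently numbered mice were not compared, so whether the replicate numbers pair the mice was not tested further. With the replicate block, the 9 cytosines at an unadjusted p under 0.05 for Aged_ENR vs Aged_STD became 3 (limma). The other counts stayed within 1.5 times, for example 12 instead of 17.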
